A study of Mus musculus with 24 samples.

Results

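A set of 10 vascular signalling genes was described in mouse lung and heart: the tip cell product Esm1, the angiopoietins Angpt1 and Angpt2 with their receptor Tek, the ligands Vegfa and Pgf with the receptors Kdr and Flt1, and the ligand Apln with its receptor Aplnr. The 10 genes, of 18193 genes named on the arrays, were listed by symbol, and each was read from the probe set with its highest mean over the 24 arrays. The list was put together with values of these arrays in view, for a higher Esm1 with particulate matter in lung and a genotype difference in Angpt2. Comparisons of particulate matter with saline in lung and of genotypes in both tissues are therefore given as descriptions, without p-values for the 10 genes. Counts of the 10 genes called in those comparisons stand only beside the share over all genes, and nothing is read from them.

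Total RNA from lung and from heart left ventricle was hybridised to Affymetrix arrays, with 3 arrays in each of 8 groups. In each tissue the groups were dnCREB mice given particulate matter (PM), dnCREB mice given phosphate-buffered saline (PBS), wild-type (WT) mice given PM and WT mice given PBS. All mice were of the CD-1 strain, labelled male and 20 weeks old. In the dnCREB mice a dominant negative CREB1, an altered transcription factor that blocks the normal one, was expressed from a myosin heavy chain promoter active in cardiomyocytes, so the transgene is not aimed at lung cells. PM was given at 20 mg/kg with particles of 1.9 µm, and the labels give a harvest 36 hours later. Nothing in the labels says whether the arrays of a group came from separate animals or whether a lung and a ventricle came from the same one, so the spread between arrays may be partly technical.

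As background, VEGF-A made by epithelium, muscle and other cells acts on endothelial cells through Kdr (VEGFR2), while Flt1 (VEGFR1) binds VEGF-A and placental growth factor (Pgf) and can act as a decoy. Angpt1, made mainly by mural and mesenchymal cells, activates the endothelial receptor Tek (Tie2), and Angpt2, stored and released by endothelium, opposes Angpt1 at Tek in many settings. Esm1 (endocan) is a proteoglycan secreted by endothelial tip cells and induced by VEGF-A, and Apln is a tip cell peptide that acts on the G protein-coupled receptor Aplnr.

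The arrays carried features that cut across the groups. The lung epithelial marker Sftpc lay between 15.09 and 15.44 on the log2 scale in lung and between 2.33 and 2.49 in ventricle, and the endothelial markers Pecam1 and Cdh5 were at 9.73 or above on every array, as the tissue labels say. Cardiomyocyte Myh6 lay between 17.29 and 17.70 in ventricle, but lung arrays also held it at 10.69 to 13.66. Of the 24 arrays, all labelled male, 13 had a high level of Xist, the RNA of the inactive X chromosome, 6 of them in lung and 7 in ventricle, and 2 lung arrays had neither Xist nor the Y-linked Eif2s3y high. In lung all 3 dnCREB PM arrays and 2 of the WT PM arrays were high in Xist, against none of the 3 WT PBS arrays. In ventricle 1 of 6 dnCREB arrays was, against all 6 WT arrays. The WT PBS lungs were all high in Eif2s3y and the WT PBS ventricles all high in Xist. As labelled, the lungs and ventricles of that group thus did not come from the same animals. Whether labels were exchanged was not tested. In 5 lung arrays the skeletal muscle gene Ckm was above 8. A pair of Creb1 probe sets was higher in every dnCREB than in every WT ventricle array, at 9.05 to 12.0 in dnCREB and 2.51 to 3.29 in WT for the first, and 8.42 to 10.58 in dnCREB and 5.75 to 7.21 in WT for the second. In lung the first stayed between 3.34 and 4.29 and the second between 4.44 and 4.74, so they give no check of the lung labels.

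The 250 bases before the annotated start of 2 genes are shown with the letters of 2 response elements, since Flt1 was the only gene of the 7 found there with a complete cAMP response element and Esm1 had the largest PM difference in lung. They are from RefSeq on build GRCm38.p6 and read 5′ to 3′ on the strand of the gene, with Esm1 on the plus strand at chr13:113209409-113209658 and Flt1 on the minus strand at chr5:147726012-147726261. Capitals mark the cAMP response element TGACGTCA, to which CREB binds, and the core GCGTG or its reverse complement CACGC, to which the aryl hydrocarbon receptor binds.
Esm1: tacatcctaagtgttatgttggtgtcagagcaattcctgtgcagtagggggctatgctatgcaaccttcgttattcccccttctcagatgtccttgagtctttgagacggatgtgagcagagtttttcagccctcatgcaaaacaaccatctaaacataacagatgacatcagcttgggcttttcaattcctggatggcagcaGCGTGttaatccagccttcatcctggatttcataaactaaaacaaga
Flt1: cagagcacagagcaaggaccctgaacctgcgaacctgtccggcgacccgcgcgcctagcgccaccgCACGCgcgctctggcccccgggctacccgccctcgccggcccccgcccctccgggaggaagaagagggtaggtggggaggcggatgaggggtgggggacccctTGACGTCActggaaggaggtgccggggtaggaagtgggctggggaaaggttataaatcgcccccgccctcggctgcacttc
Promoters of 7 of the 10 genes were in the table (9 promoters), and Angpt1, Angpt2 and Aplnr were not. TGACGTCA, its own reverse complement, occurred in 1.55% of all 32851 promoters of this length. GCGTG on either strand occurred in 28.2% of them, and among the listed genes in Esm1, Kdr, Flt1, 1 of the Pgf starts and 1 of the Vegfa starts. The hypoxia response core ACGTG, searched on either strand as well, occurred in 16.6% and, among the listed genes, in the same Vegfa start. The window of that start, chr17:46025164-46025413 on the minus strand, lies downstream of the other Vegfa start. The window of the other start, chr17:46032378-46032627, had no match to any of these motifs. No match overlapped another.

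Esm1 was the gene of the list that differed most with PM in lung. Its log2 values were 11.40, 11.52 and 11.28 in dnCREB PM lungs, against 9.37, 9.52 and 11.14 in dnCREB PBS lungs. They were 11.12, 9.75 and 11.83 in WT PM lungs, against 7.10, 8.56 and 7.42 in WT PBS lungs. In each genotype every PM array lay above every PBS array, and the dnCREB PM arrays were far closer together than those of any other lung group. The difference of PM from PBS was 3.21 ± 0.58 (log2, SE) in WT lungs, a 9.22-fold difference, and 1.39 ± 0.58, or 2.61-fold, in dnCREB lungs. By size alone it was the difference ranked 35 of 11600 genes in WT and 85 in dnCREB. Under PBS the dnCREB lungs were also above the WT lungs on every array, by 2.32 ± 0.58, whereas under PM the genotypes overlapped and differed by 0.50 ± 0.58. The genotype by PM interaction, PM minus PBS in dnCREB less the same in WT, was -1.82 ± 0.82, and -0.18 with sex-chromosome class as a covariate.

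Angpt2 was low in 1 lung group and level in the other 3. It measured 7.51, 7.54 and 7.27 in dnCREB PM lungs and 7.28, 7.32 and 7.0 in dnCREB PBS lungs. In WT PM lungs it measured 7.19, 7.60 and 7.53, against 6.06, 5.99 and 5.90 in WT PBS lungs. All 9 arrays outside WT PBS lay at 7.0 or above, and all 3 WT PBS arrays at 6.06 or below. The difference with PM was therefore 1.46 ± 0.16 in WT lungs, 2.75-fold, and 0.24 ± 0.16 in dnCREB lungs. The genotype difference was 1.22 ± 0.16 under PBS, 2.33-fold higher in dnCREB, and the means under PM were both 7.44. The interaction was -1.22 ± 0.23. A second Angpt2 probe set stayed between 3.1 and 3.23 as group means and was never above 4, so it does not bear on these differences.

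**Figure D1:**
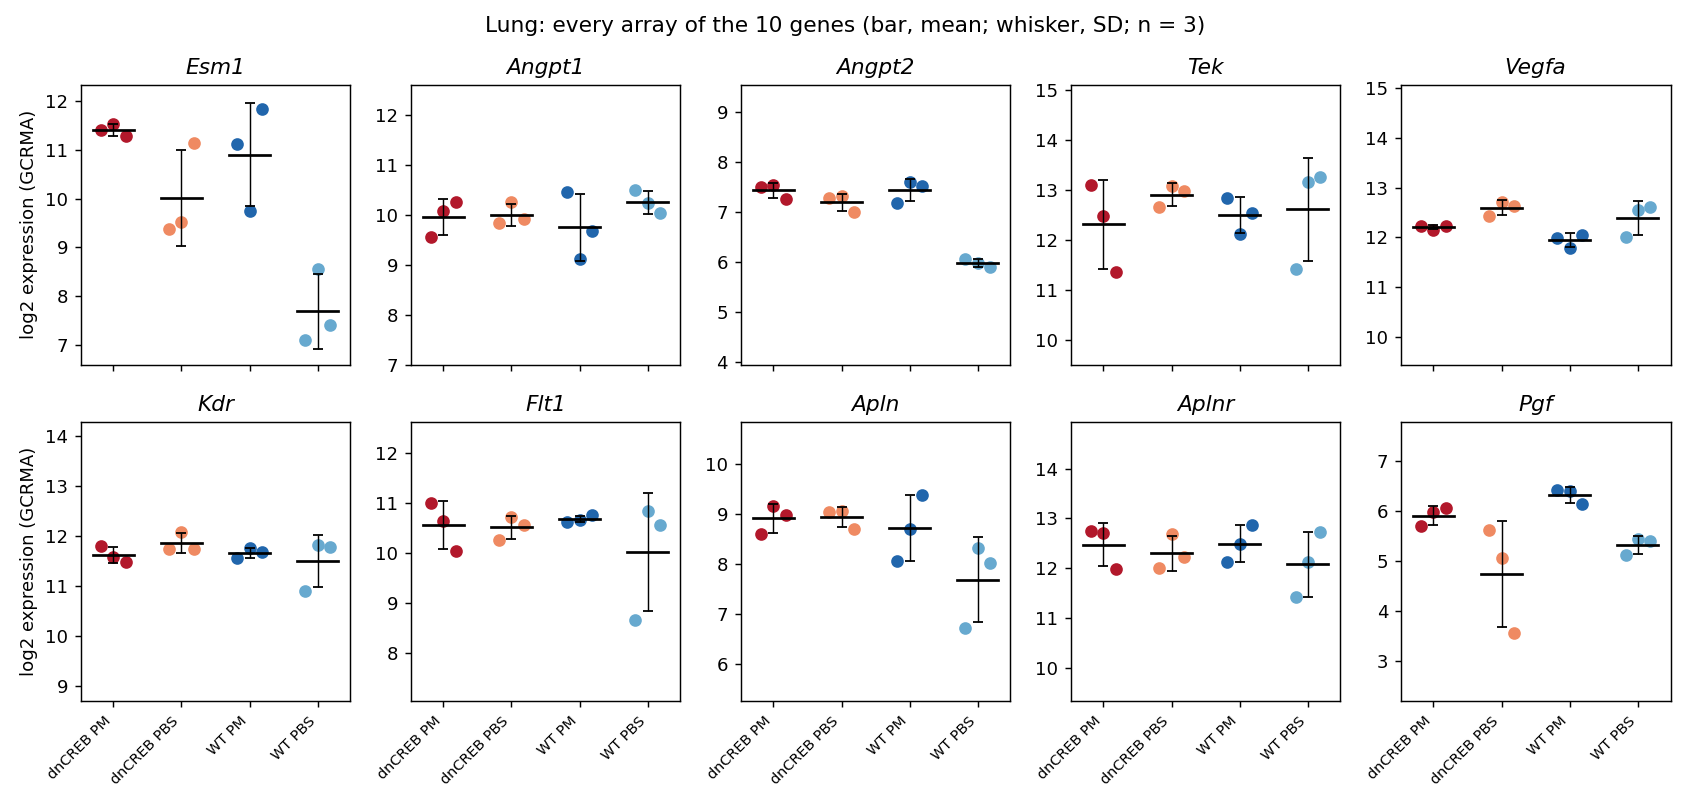
Log2 expression (GCRMA) of the 10 genes in lung, with 1 point per array, a bar at the mean and a whisker of 1 SD (n = 3), for dnCREB PM, dnCREB PBS, WT PM and WT PBS in that order; each panel has its own vertical position and none starts at 0. Esm1 and Angpt2 are lowest in WT PBS, at means of 7.69 and 5.98, while Kdr and Tek overlap in every comparison.

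These counts were set beside those over the whole table of 11600 lung genes, with a gene called at an adjusted p under 0.05 by limma. In dnCREB lungs with PM against PBS, limma called 0 of the 10 genes and 0.00862% of all genes, with 2 of the 10 and 9.72% of all at an unadjusted p under 0.05. Every PM array lay above every PBS array for Esm1 and Pgf (20.8% of all genes) and below for Vegfa (8.25%). In WT lungs with PM, limma called Esm1 and Angpt2 higher, the genes for which the list was put together. There 2.39% of all genes were called and 1.96% were called higher. The Esm1 call was lost without WT PBS replicate 1, at 2.91, or WT PM replicate 3, at 2.74. In WT lungs 3 of the 10 genes had every PM array above every PBS array, where 17.4% of all genes did.

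In dnCREB against WT lungs under PBS, limma called Angpt2 alone, where 0.0259% of all genes were called and 0.00862% were called higher. Its call was lost on leaving out any of 10 lung arrays (all but WT PM replicates 1 and 2), while its value stayed between 1.16 and 1.32. Every dnCREB array lay above every WT array for Esm1, Angpt2 and Apln, where 5.85% of all genes did. Under PM limma called 0 of the 10 genes and 0% of all genes, with 0 of the 10 and 3.97% of all at an unadjusted p under 0.05. There Vegfa was the gene with every dnCREB array above the WT arrays (2.91% of all genes), by 0.26 ± 0.18, and Pgf the one with every dnCREB array below (5.42%), by a difference of -0.41 ± 0.40. Because these contrasts chose the list, nothing is read from these counts.

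On the probe sets used, the angiopoietin receptor Tek and its activating ligand Angpt1 showed no separation of groups in lung. Angpt1 lay between 9.55 and 10.25 in dnCREB PM, 9.83 and 10.25 in dnCREB PBS, 9.11 and 10.45 in WT PM and 10.03 and 10.49 in WT PBS lungs. Tek ranged on single arrays between 11.35 and 13.25, and its lowest values were dnCREB PM replicate 3 and WT PBS replicate 1. The log2 ratio of Angpt2 to Angpt1 within an array, which has no absolute meaning between different probe sets, averaged -2.52 in dnCREB PM, -2.79 in dnCREB PBS and -2.30 in WT PM lungs, against -4.27 in WT PBS lungs. A second Angpt1 probe set averaged 6.07 in dnCREB PM and 5.18 in WT PM lungs, against 7.96 in dnCREB PBS and 7.35 in WT PBS lungs. Its means were thus lower in both PM groups, so the pattern of the ratio depends on the Angpt1 probe set.

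Of the VEGF ligands, Pgf was higher with PM in both genotypes and Vegfa was slightly lower on the probe set used. Pgf measured 5.69, 5.98 and 6.05 in dnCREB PM lungs, against 5.61, 5.05 and 3.56 in dnCREB PBS lungs, and 6.42, 6.4 and 6.14 in WT PM lungs, against 5.11, 5.43 and 5.40 in WT PBS lungs. The PM arrays lay above the PBS arrays in each genotype, by 1.17 ± 0.40 in dnCREB and 1.01 ± 0.40 in WT. The dnCREB value rested on 1 array: without dnCREB PBS replicate 3 it was 0.58. Vegfa measured 12.24, 12.16 and 12.23 in dnCREB PM lungs, against 12.44, 12.72 and 12.64 in dnCREB PBS lungs, with every PM array the lower, a difference of -0.39 ± 0.18. In WT lungs the arrays overlapped, at 11.99, 11.79 and 12.06 with PM and 12.00, 12.56 and 12.61 with PBS, and the difference was -0.44 ± 0.18.

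The receptors Kdr and Flt1 overlapped in every lung comparison. Kdr averaged 11.61 in dnCREB PM, 11.85 in dnCREB PBS, 11.66 in WT PM and 11.49 in WT PBS lungs. Flt1 averaged 10.55 in dnCREB PM, 10.51 in dnCREB PBS, 10.68 in WT PM and 10.02 ± 1.18 (SD, n = 3) in WT PBS lungs. The WT PBS spread came from replicate 1, at 8.66, whose mean of 18 pan-endothelial genes was 9.64, against 10.38 to 11.12 on the other lung arrays. Without it the PM difference of Flt1 in WT lungs was -0.02, against 0.66 with it. In a bulk tissue, fewer endothelial cells and less of their RNA per cell cannot be told apart.

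Apln was also lowest in WT PBS lungs, with a wider spread. It measured 8.60, 9.15 and 8.98 in dnCREB PM, 9.04, 9.06 and 8.70 in dnCREB PBS and 8.06, 8.69 and 9.38 in WT PM lungs, against 6.72, 8.31 and 8.02 in WT PBS lungs. Under PBS all 3 dnCREB arrays lay above the WT arrays, by 1.25 ± 0.41, or 0.77 without WT PBS replicate 1. The PM difference in WT lungs was 1.03 ± 0.41, with overlapping arrays, and fell to 0.54 without WT PBS replicate 1. The receptor Aplnr averaged between 12.09 and 12.49 in the 4 lung groups and separated none of them.

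The interaction in lung could be tested for the 8 genes that the list was not chosen on. limma called 0 of them, with adjusted p between 0.8314 for Apln, at -1.05 ± 0.58, and 0.9719 for Vegfa, at 0.05 ± 0.25. Over all 11600 genes 1 passed, 0.00862%, and 606 genes, 5.22%, had an unadjusted p under 0.05, with none of the 8 among them.

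**Figure D2:**
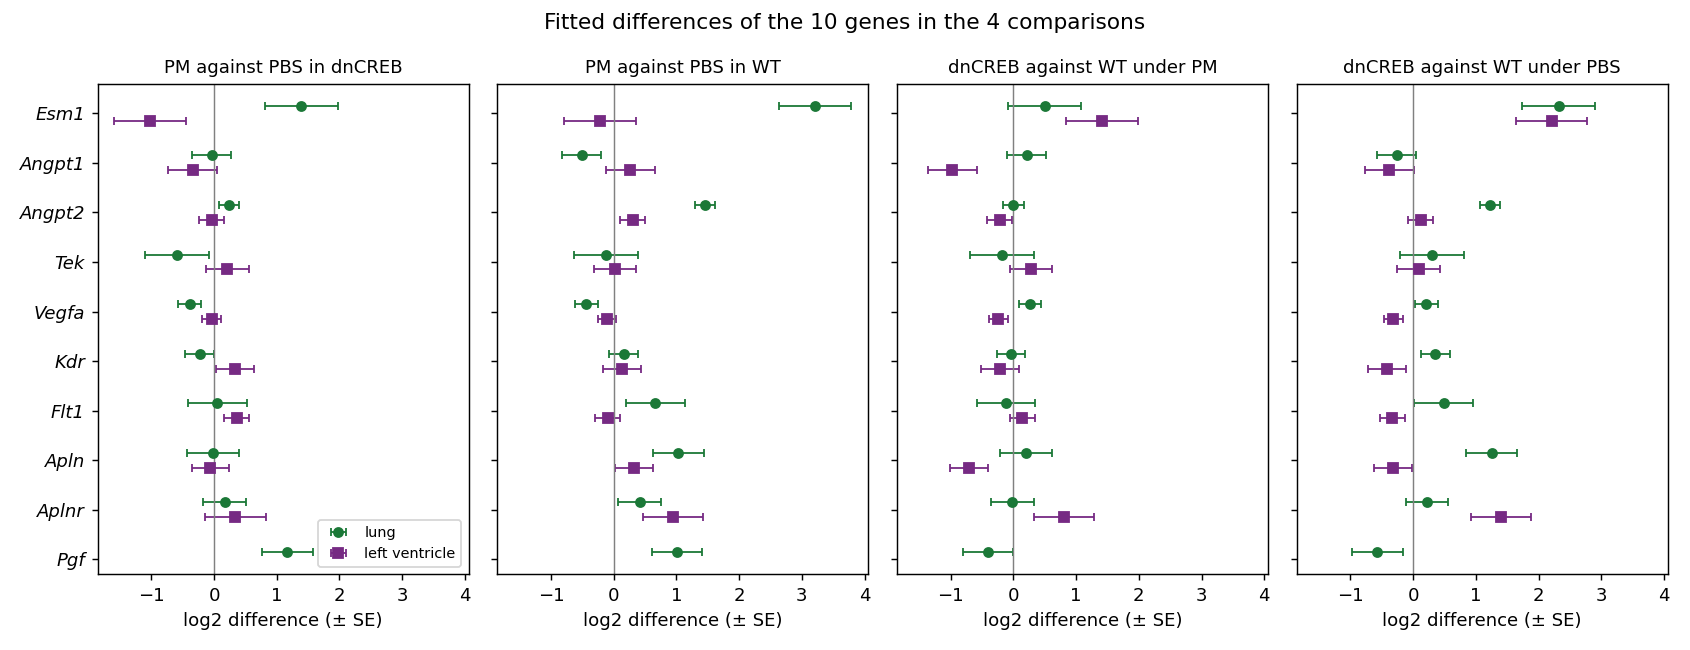
Fitted log2 differences with their standard errors for the 10 genes in PM against PBS in dnCREB, PM against PBS in WT, dnCREB against WT under PM and dnCREB against WT under PBS, with lung as circles and left ventricle as squares; Pgf has no ventricle value because it did not pass the filter on low values. Esm1 in WT lung with PM lies at 3.21, and in ventricle the dnCREB difference under PBS lies at 2.21.

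Sex-chromosome class and skeletal muscle RNA also differed between the lung groups. All 3 WT PBS arrays were high in Eif2s3y and low in Xist. With that class as a covariate the Esm1 difference with PM was 1.88 in dnCREB and 2.05 in WT lungs, the WT call was lost, and the dnCREB difference under PBS was 0.10. These values rest on single arrays, since class varied within a group only through WT PM replicate 2 and dnCREB PBS replicate 2. The same fit left the Angpt2 values at 1.62 for PM in WT and 1.58 for dnCREB under PBS. The Angpt2 call for dnCREB under PBS was lost in that fit, and also with the skeletal muscle level as a covariate. The mean of the skeletal muscle genes per array lay between 3.09 and 8.14 in dnCREB PM, 3.41 and 8.01 in dnCREB PBS and 4.40 and 7.89 in WT PM lungs, against 3.29 and 3.31 in WT PBS lungs. All 10 tested skeletal genes had a positive difference with PM in WT lungs, with 0 called by limma and 5 at an unadjusted p under 0.05. Leaving out the 5 arrays with high Ckm left 1 dnCREB PBS and 1 WT PM array, each assumed to vary like the other groups, so its values are single-array differences and bear little on the calls. The Esm1 difference was then 1.94 in dnCREB and 4.14 in WT lungs, and that of Angpt2 in WT 1.55. With the pan-endothelial mean as a covariate, chosen after the values were seen, the Esm1 difference was 1.44 in dnCREB and 3.07 in WT, and that of Angpt2 in WT 1.47. The part of these features in the differences was not tested further.

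**Figure D3:**
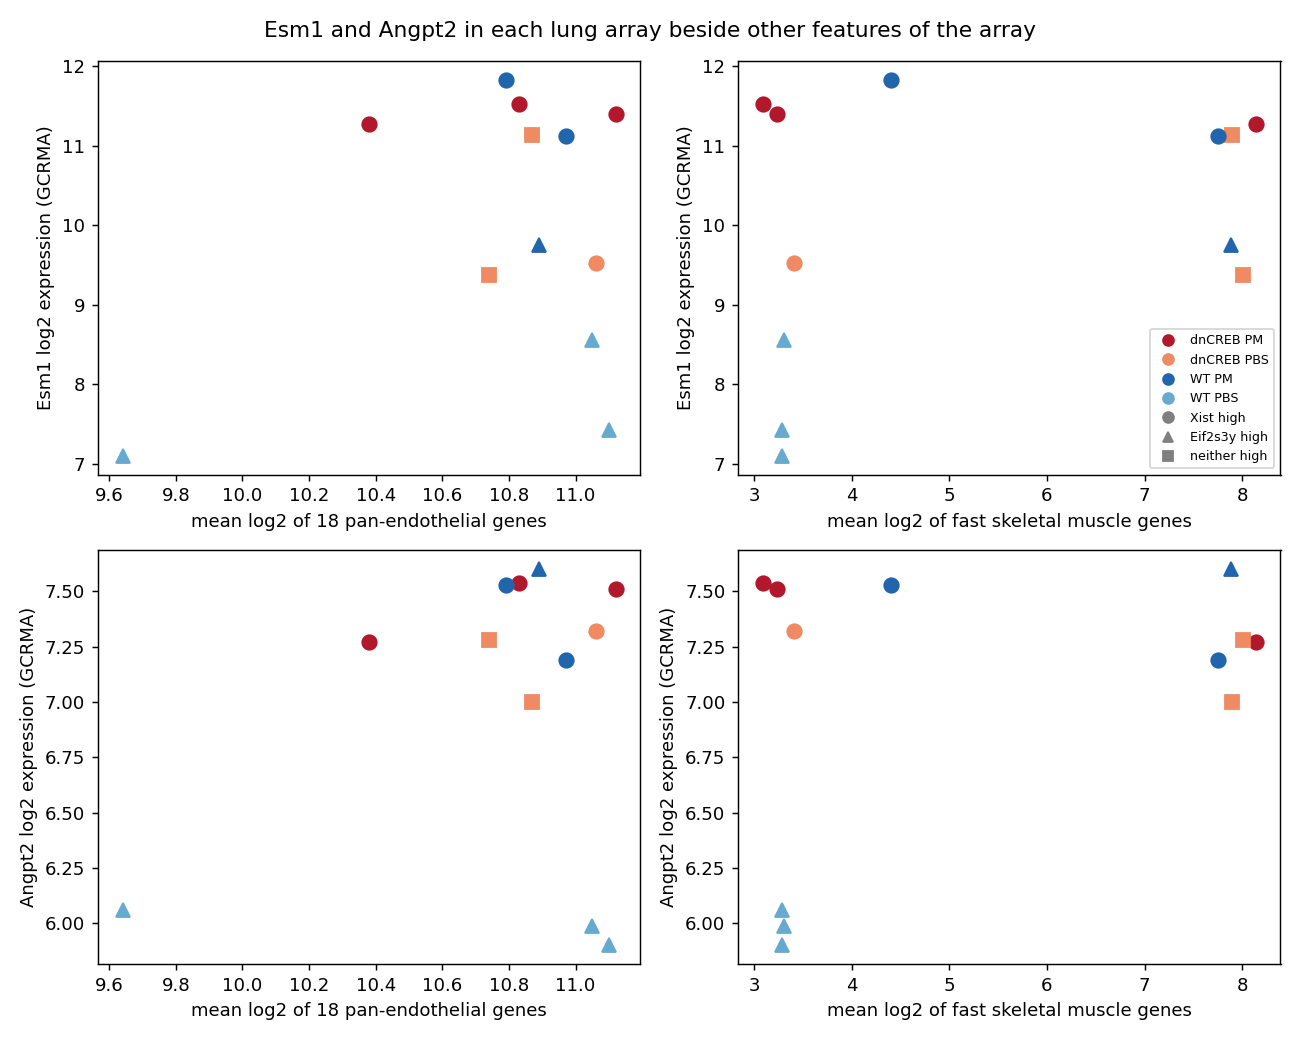
Log2 expression of Esm1 (top) and Angpt2 (bottom) in each lung array against the mean log2 level of 18 pan-endothelial genes (left) and of the fast skeletal muscle genes (right); colour gives the group, and circles, triangles and squares mark arrays with high Xist, high Eif2s3y and neither. The 3 WT PBS arrays are triangles with a skeletal muscle level of 3.29 to 3.31 and hold the lowest values of both genes, and WT PBS replicate 1 stands apart at a pan-endothelial mean of 9.64.

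Other probe sets of the same genes did not all repeat the values of the ones used. The second Angpt1 probe set measured 5.75, 5.66 and 6.79 in dnCREB PM lungs, against 7.50, 8.34 and 8.03 in dnCREB PBS lungs, a difference of -1.89. In WT lungs it measured 7.30, 4.08 and 4.15 with PM and 6.99, 7.99 and 7.09 with PBS, a difference of -2.18. There WT PM replicate 1 lay within the PBS range, and the other WT PM arrays lay near the filter level of 4. The Angpt1 probe set used gave -0.04 in dnCREB and -0.51 in WT lungs. The second Vegfa probe set was lower with PM in dnCREB lungs by a difference of -1.32, the same direction as the probe set used. In WT lungs it differed by 0.13 where the probe set used gave -0.44. It measured 8.39, 8.51 and 8.56 in WT PM lungs, against 6.54, 9.54 and 8.97 in WT PBS lungs. Its WT difference thus rested on the low WT PBS replicate 1. In dnCREB against WT under PM it gave -0.10 in lung and 0.16 in ventricle, where the probe set used gave 0.26 and -0.24. One of the further Flt1 probe sets was also lower with PM in dnCREB lungs, by a difference of -1.74, whereas the probe set used differed by 0.05. The second Aplnr probe set averaged between 7.87 and 8.41 in the 4 lung groups, again without separation. Which transcripts each probe set reads was not tested.

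**Figure D4:**
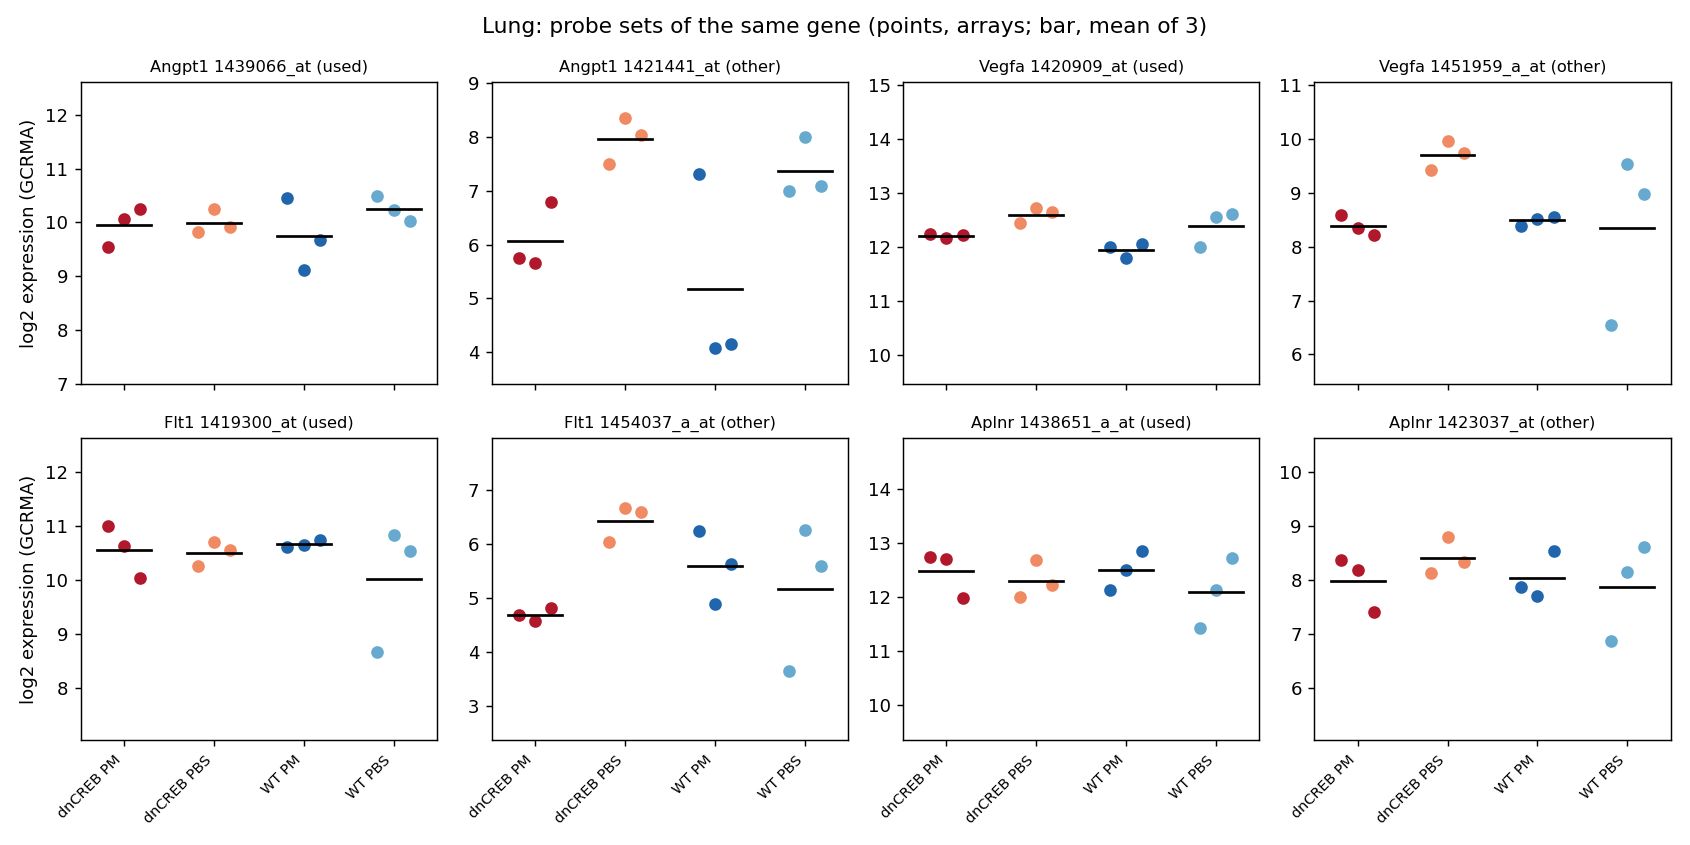
Log2 expression in lung for the probe set used and another probe set of Angpt1, Vegfa, Flt1 and Aplnr, 1 point per array with a bar at the mean of 3; vertical positions differ between panels and none starts at 0. For Angpt1 and Flt1 the other probe set is lower in dnCREB PM than in dnCREB PBS, at means of 6.07 against 7.96 and 4.69 against 6.43, while the probe set used is not.

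In left ventricle the genes divided differently. Pgf stayed at 3.71 to 4.13 and above 4 on 1 of 12 arrays, so 9 of the 10 genes were tested. Esm1 measured 6.45, 9.19 and 7.07 in dnCREB PM and 8.86, 8.85 and 8.05 in dnCREB PBS ventricles, against 6.68, 5.86 and 5.95 in WT PM and 6.32, 6.41 and 6.41 in WT PBS ventricles. Under PBS every dnCREB array was above every WT array, by 2.21 ± 0.57, or 4.61-fold. Under PM the genotypes overlapped through dnCREB PM replicate 1, and the difference was 1.41 ± 0.57. It rested on single dnCREB PM arrays, being 1.97 without replicate 1 and 0.59 without replicate 2.

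Aplnr was the other gene with every dnCREB ventricle array above the WT arrays under PBS. It measured 11.74, 12.36 and 11.58 in dnCREB PBS, against 9.20, 11.32 and 10.95 in WT PBS ventricles, a difference of 1.40 ± 0.48, or 0.75 without the low WT replicate 1. On the second Aplnr probe set the arrays overlapped, with a difference of 0.90. Its ligand Apln averaged 6.26 in dnCREB PM against 6.97 in WT PM ventricles, a difference of -0.71 ± 0.30 with overlapping arrays. Angpt1 averaged 7.51 in dnCREB PM against 8.49 in WT PM ventricles, a difference of -0.98 ± 0.39, also overlapping. Angpt2 lay between 4.17 and 5.15 on all ventricle arrays, near the filter level of 4, and its genotype differences were -0.22 under PM and 0.12 under PBS. Flt1 was slightly lower in dnCREB PBS ventricles on every array, by a difference of -0.33 ± 0.20, at a mean of 10.25 against 10.58 in WT PBS. Vegfa averaged 11.53 in dnCREB PM and 11.56 in dnCREB PBS, against 11.77 in WT PM and 11.88 in WT PBS ventricles. Tek, averaging 11.06 to 11.36, and Kdr, averaging 10.02 to 10.57, overlapped in every comparison.

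limma called 1 of the 9 genes in dnCREB against WT ventricles under PBS, Esm1 as higher, where 18.8% of all 9962 genes were called and 13.2% were called higher. The call was lost on leaving out any of the WT PBS arrays, dnCREB PBS replicate 1 or dnCREB PBS replicate 2, with values of 2.07 to 2.22. Of all genes, 25.8% had every dnCREB array above every WT array under PBS, as Esm1 and Aplnr had, and 16.9% had every one below, as Flt1 had. Under PM limma called 0 of 9, where 20.5% were called, with 3 of the 9 and 34% of all at an unadjusted p under 0.05. Vegfa was the gene with every dnCREB array below the WT arrays under PM, by a difference of -0.24 ± 0.15, where 16.2% of all genes were. Sex-chromosome class ran with genotype in ventricle, since all but 1 of the dnCREB arrays were high in Eif2s3y and all WT arrays in Xist. With that class as a covariate, the difference under PBS was 1.45 for Esm1, whose call was lost, and 0.68 for Aplnr, with dnCREB PM replicate 3 as the only dnCREB array to separate class from genotype.

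**Figure D5:**
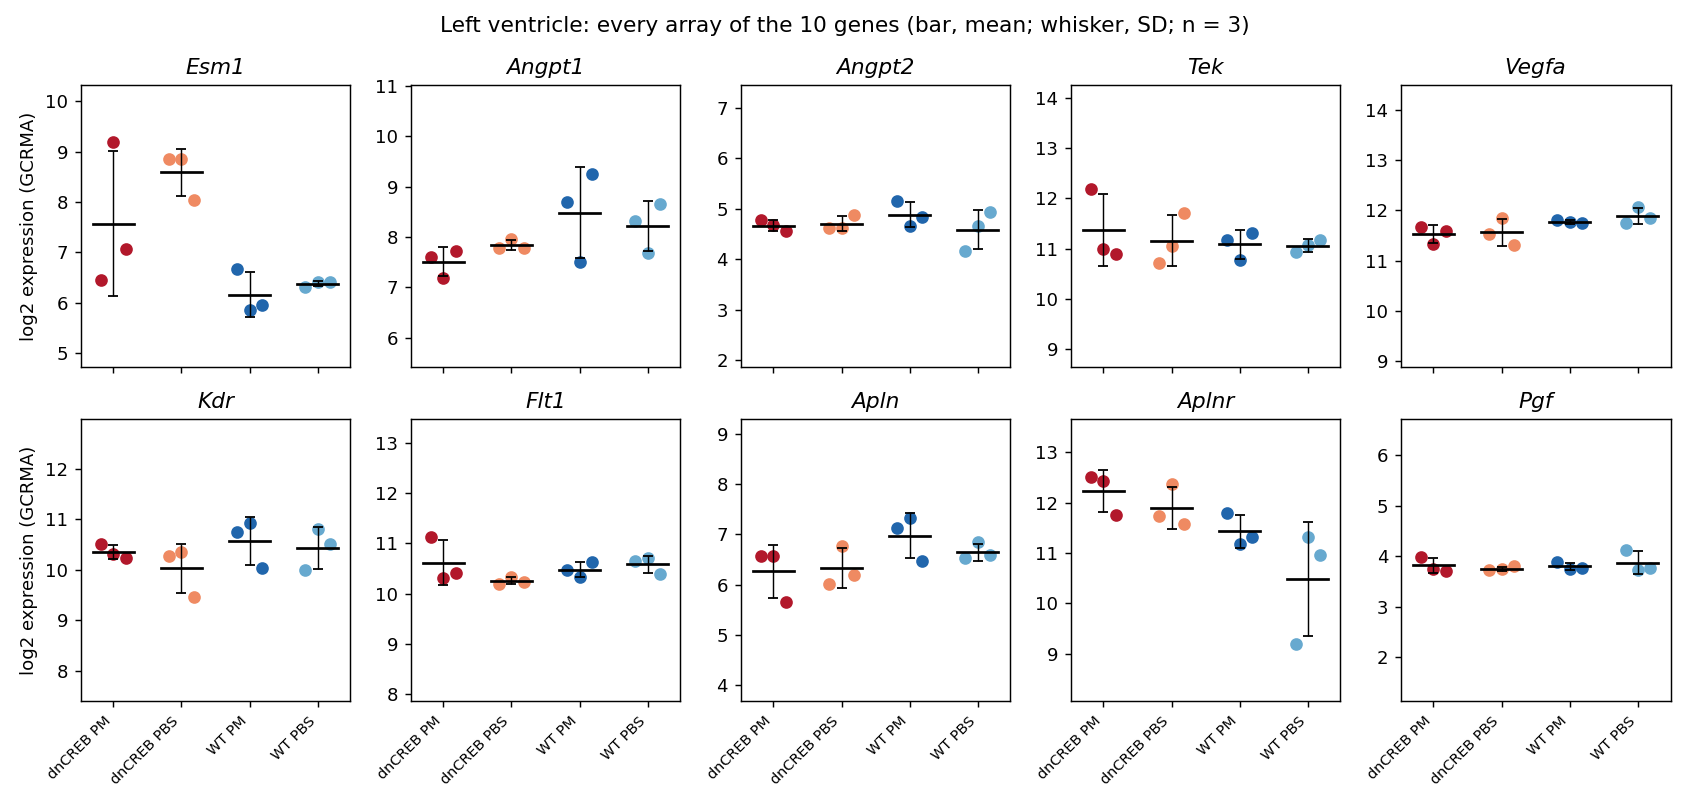
Log2 expression (GCRMA) of the 10 genes in left ventricle, with 1 point per array, a bar at the mean and a whisker of 1 SD (n = 3), for dnCREB PM, dnCREB PBS, WT PM and WT PBS in that order; vertical positions differ between panels and none starts at 0. Esm1 is above WT in all 3 dnCREB PBS arrays, and Pgf stays near 4 on every array.

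PM against PBS in ventricle did not enter the choice of the list and was tested. limma called 0 of 9 genes in dnCREB ventricles, where 0% of all genes were called, with 0 of 9 and 4.92% of all at an unadjusted p under 0.05. The smallest adjusted p was 0.9657, for Esm1 at -1.02 ± 0.57 and Flt1 at 0.36 ± 0.20. With 1 array left out the Esm1 value lay between -1.83 and -0.46. Angpt1 had every PM array below every PBS array, as 4.97% of all genes had, by a difference of -0.34 ± 0.39 (limma adjusted p = 0.9850). In WT ventricles limma again called 0 of 9, where 0.01% of all genes were called, with 0 of 9 and 1.47% of all at an unadjusted p under 0.05, and the Aplnr difference was 0.94 ± 0.48 (limma adjusted p = 1.0000), and 0.29 without WT PBS replicate 1. The interaction in ventricle was called by limma for 0 of 9 genes and 0% of all genes, with 0 of 9 and 3.62% of all at an unadjusted p under 0.05 and adjusted p between 0.9801 and 0.9876.

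Other genes of the same pathways gave the setting in lung. Of 12 further VEGF and angiopoietin genes, limma called 0 in WT lungs with PM, where it called 2.39% of all genes. Of the 12, 5 had an unadjusted p under 0.05, which 26.3% of all lung genes had. Their median difference was 0.21, against 0.11 over all genes. The largest were the lymphatic receptor Flt4 at 1.42 ± 0.48 (limma adjusted p = 0.1091) and the transcription factor Foxo1 at 1.12 ± 0.27 (0.0525). Of 19 Notch and tip cell genes, Cd34, a surface sialomucin of tip cells, was called higher in WT lungs with PM at 1.01 ± 0.19 (limma adjusted p = 0.0275). The median was 0.76, and 10 of the 19 had an unadjusted p under 0.05. The next by p were not called: the Notch target Hes1 at -0.65 ± 0.16 (limma adjusted p = 0.0542) and the vasodilator peptide Adm at 2.73 ± 0.79 (0.0796). limma called 0 of 18 pan-endothelial genes in every lung comparison, where it called between 0% and 2.39% of all genes. With PM in WT 3 had an unadjusted p under 0.05 and the median was 0.26. limma also called 0 of 19 hypoxia-induced genes there, with 5 at an unadjusted p under 0.05, near the 26.3% of all genes. Of 13 macrophage genes, 3 were called higher in WT lungs with PM, where 1.96% of all genes were. Their median was 1.32, and 11 of the 13 had an unadjusted p under 0.05.

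In ventricle the same lists held calls between genotypes, where 18.8% of all genes were called under PBS and 20.5% under PM, so calls in a list are common there. Of 11 further VEGF and angiopoietin genes tested, 3 were higher and 1 lower in dnCREB under PBS, and the same 4 under PM. Svep1, a matrix protein needed for lymphatic vessel growth, was higher by 4.49 ± 0.71, the lymphatic ligand Vegfc by 1.11 ± 0.28 and its receptor Flt4 by 0.76 ± 0.21, while Vegfb, a ligand of Flt1, differed by -0.58 ± 0.14 (limma adjusted p between 0.0022 and 0.0292). Among 11 capillary genes, limma called 2 higher and 1 lower in dnCREB under PBS. Plvap, which forms the diaphragms of fenestrae, was higher by 4.05 ± 0.63 and Fibin by 2.32 ± 0.38. Car4, a carbonic anhydrase of capillaries, differed by -2.18 ± 0.46. Of 18 Notch and tip cell genes, 2 were called higher under PBS, Cd34 by 1.37 ± 0.22 and Hes1 by 0.79 ± 0.24. Of 17 pan-endothelial genes, limma called 0 under PBS, and 1 had an unadjusted p under 0.05, which 33.1% of all genes had. Under PM it called Ecscr higher, by 1.05 ± 0.33. There 4 of the 17 had an unadjusted p under 0.05, which 34% of all genes had. Under PM 16 of the 17 were higher in dnCREB, with a median of 0.44, against 0.02 over all genes. Fibroblast genes moved with genotype as well: 8 of 10 were called higher in dnCREB under PBS, with a median of 1.51, against 0.09 over all genes, and 1 of 11 macrophage genes under PBS and 9 under PM. The part of these other cell types in the Esm1 and Aplnr values was not tested.

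The genes whose level followed Esm1 most closely over the 12 lung arrays were Npy1r (Pearson r = 0.931, Spearman rho = 0.881), Ebf1 (0.921 and 0.846), Nptx1 (0.917 and 0.874), Kat6b (0.909 and 0.930) and Mmp2 (0.896 and 0.909). Those that followed Angpt2 most closely by Pearson r over the 12 ventricle arrays were Zfp867 (0.866 and 0.755) and Zfp64 (0.854 and 0.517). Next were Ap2a1 (0.837 and 0.783), Dusp8 (0.829 and 0.692) and Pigc (0.825 and 0.51). Angpt2 itself had a narrow range in ventricle. These are descriptions over arrays that share tissue, groups and, in lung, the features given above.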

How the data were processed

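The values deposited for the 24 arrays were log2 expression of probe sets, and GCRMA is the tool that the submitters' processing notes name. Lung and ventricle had different array minima (0.52 to 0.56 and -0.22 to -0.20), so levels were not compared between tissues, nor between genes. Of 45037 probe sets, 34945 had 1 gene symbol in the platform annotation and 932 had several and were left out. For each gene 1 probe set, the highest in mean over all arrays, was kept (18193 genes), and a gene was tested where 3 arrays exceeded 4 (11600 genes in lung, 9962 in ventricle). limma 3.58.1 in R 4.3.3 fitted 4 group means per tissue, with Benjamini-Hochberg adjustment over all genes tested and a threshold of 0.05. The fit was tested on simulated data. Genes named from other lists were the called members or those with the smallest p. The 10 genes and the lists of other genes were chosen with earlier results of these data known. Alternatives covered the filter, scaling, weights, covariates and each array left out in turn. No genome was used, and promoter sequences are from RefSeq.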

Additional observations from a re-analysis of the deposited data

Results flagged for a closer look

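On the probe set used, Vegfa differed between genotypes under PM in opposite directions in the tissues. Every dnCREB PM lung array lay above every WT PM lung array, by 0.26 on the log2 scale, and every dnCREB PM ventricle array lay below every WT PM ventricle array, by a difference of -0.24. The second Vegfa probe set gave the opposite signs, -0.10 in lung and 0.16 in ventricle. The difference between the tissues was not tested, the tissues were scaled separately, and neither value was called by limma.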

How the results depend on the processing

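The counts of the 10 genes called by limma depended on the processing. For the contrasts that chose the list, nothing is read from them. In WT lungs with PM, where 2 were called, the count was 1 with no filter, with sex-chromosome class as a covariate and with skeletal muscle level as a covariate, and 0 when only the groups compared were fitted or without the 5 arrays with high Ckm, which left 1 WT PM and 1 dnCREB PBS array. Leaving out 1 array in turn gave 1 to 3, with Esm1 lost without WT PBS replicate 1 or WT PM replicate 3. In dnCREB lungs with PM the count was 1 (Vegfa) with array weights, against 0. Array weights also added a call of Vegfa in WT lungs with PM, at -0.55. In dnCREB against WT lungs under PBS, where Angpt2 was called, it was 0 with a filter at 6, quantile normalization, only the groups compared, variance trend and robust estimation, sex-chromosome class, skeletal muscle level, and without the 5 arrays, and 0 to 1 with 1 array left out. In dnCREB against WT ventricles under PBS, where Esm1 was called, it was 0 with no filter and with sex-chromosome class, 2 with array weights and with the pan-endothelial mean, and 0 to 1 with 1 array left out. Under PM it was 1, against 0, with sex-chromosome class and with the pan-endothelial mean, and 0 to 1 with 1 array left out. The cause of these shifts was not tested. The lung interaction, dnCREB against WT in lung under PM, and the 3 other ventricle comparisons kept a count of 0 in every alternative run. Of the values of single genes, 2173 stayed on their side of the threshold and within the spread, 44 moved, 34 lost a call, 10 gained one, and 0 called values changed sign.

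Equal replicate numbers did not pair the arrays: deviations of same-numbered arrays correlated between -0.33 and 0.33. With the replicate number as a block, the count in dnCREB against WT lungs under PBS was 0, and no other count changed. With 3 arrays per group, the number of arrays limits the precision, and Pgf in ventricle and Angpt2 in ventricle lay near the filter level of 4.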
